A study of Homo sapiens with 3 samples.

Results

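Mediator is the large protein complex that stands between DNA-bound transcription factors and RNA polymerase II. Its head, middle and tail form a core held together by the scaffold subunit MED14; the head contacts the polymerase, and the tail is where many activators dock. A separable kinase module (CDK8 or CDK19, cyclin C, MED12 or MED12L, and MED13 or MED13L) binds the core reversibly and keeps the polymerase away while it is bound. Mediator also has a textbook link to the pathway of this study: the ETS factor ELK1, once phosphorylated by ERK, binds the tail subunit MED23.

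The subunits were taken as the protein-coding genes whose symbol is MED with a number, MED12L and MED13L included, together with CDK8, CDK19 and CCNC, with 1 MED gene set aside. That gave 32 of the 23379 genes in the deposited tables, of which 6 belong to the head, 9 to the middle, 9 to the tail and 7 to the kinase module, and 1 is the scaffold. The choice was made knowing that MED18 was low in the WT library, so its level there is a description and supports nothing. Messenger RNA was sequenced from DU145, an established human prostate carcinoma line, in 3 libraries with 1 for each group. The groups were cells overexpressing wild-type BRAF (WT), cells given a plasmid that encodes BRAF L597R, a kinase domain mutant, and the negative control P-Enter; all 3 share the DU145 background, and no further treatment, promoter, clone or time is given in the labels. BRAF, a kinase that signals to MEK and ERK, stood at 4.41 FPKM in WT and 9.59 FPKM in L597R, against 1.65 FPKM in P-Enter.

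The files hold FPKM (reads scaled to gene length and to the library's counted reads), and the values themselves gave 15665132 counted reads for WT, 16603676 for L597R and 13294004 for P-Enter. The epithelial keratin KRT18 was at 36.6 FPKM in WT, 37.6 in L597R and 34.3 in P-Enter, and vimentin (VIM) at 127, 132 and 130 FPKM in that order. The epithelial cadherin CDH1 had 0 reads in WT, 0 in L597R and 1 in P-Enter, and KRT8 was below 1 FPKM in each library, so the epithelial part of the label rests on KRT18. EPCAM was not analysed here. Each group is a single library, so no difference could be checked against replicates and no p-value is given. Each read ratio, corrected for the counted reads, stands with its exact 95% interval in brackets. Such an interval covers counting error only and compares libraries, not conditions. Each value per gene is a bulk measure, in which fewer cells with a transcript and less transcript per cell cannot be told apart.

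The promoters of 3 subunits are shown because the comparisons turn on them: MED18, far below the control in both BRAF libraries, and MED23 and CDK8, which had the highest read ratios of L597R to P-Enter after the thinly covered MED11. Each runs from 250 bases before the gene's start to 50 bases after it (RefSeq, GRCh38.p14), on the gene's own strand. They lie at chr1:28328790-28329089 on the plus strand (MED18), chr6:131628264-131628563 on the minus strand (MED23) and chr13:26253879-26254178 on the plus strand (CDK8). Capitals mark matches, on either strand, to 5 motifs picked after the MED18 promoter had been read: the cyclic AMP response element TGACGTCA, the YY1 motif AAGATGGCG (CGCCATCTT on the other strand), the NRF1 core CGCATGCG, the ETS core CCGGAAG, and TATAAA. No match overlaps another.
MED18: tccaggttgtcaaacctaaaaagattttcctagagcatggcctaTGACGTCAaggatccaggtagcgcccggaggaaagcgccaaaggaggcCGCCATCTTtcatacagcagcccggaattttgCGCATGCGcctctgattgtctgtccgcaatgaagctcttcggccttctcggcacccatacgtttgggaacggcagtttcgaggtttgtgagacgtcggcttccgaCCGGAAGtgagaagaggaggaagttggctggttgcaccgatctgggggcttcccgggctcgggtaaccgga
MED23: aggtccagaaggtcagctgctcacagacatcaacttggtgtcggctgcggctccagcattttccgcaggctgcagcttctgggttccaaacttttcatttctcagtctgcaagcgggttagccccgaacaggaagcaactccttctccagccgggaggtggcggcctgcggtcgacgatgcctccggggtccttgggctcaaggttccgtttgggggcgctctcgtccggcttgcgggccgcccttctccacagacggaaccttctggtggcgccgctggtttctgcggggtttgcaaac
CDK8: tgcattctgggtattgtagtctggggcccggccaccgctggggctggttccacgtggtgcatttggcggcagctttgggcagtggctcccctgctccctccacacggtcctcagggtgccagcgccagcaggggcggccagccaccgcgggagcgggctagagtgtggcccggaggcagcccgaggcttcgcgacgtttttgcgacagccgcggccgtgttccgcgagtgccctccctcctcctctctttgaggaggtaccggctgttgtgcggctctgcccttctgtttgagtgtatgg
In the MED18 window the response element begins 206 bases before the start, the YY1 match 158, the NRF1 match 126 and the ETS core 21 bases before it, counted from the RefSeq start. Neither of the other windows holds any of the 5 motifs. Promoters were matched for 25 of the 32 subunits. Of these, 7 hold the ETS core (28%, against 22.5% of 7805 promoters of protein-coding genes tested here and 10.7% of 27305 promoters in all), namely MED7, MED11, MED15, MED17, MED18, MED29 and MED31. The YY1 motif is in 4 (MED1, MED16, MED18 and MED25; 16%, against 4.66% of tested and 1.85% of all promoters). MED18 is the 1 subunit with the response element (3.70% of tested and 1.98% of all promoters) and the 1 with the NRF1 motif (4.47% and 2.19%), and TATAAA is in 2 (MED7 and MED16; 4.84% and 12%). Since the motifs were picked after the MED18 promoter had been read, its own matches were fixed by that choice. The shares that count MED18, and the lack of matches in the MED23 and CDK8 windows, are descriptions and show no enrichment. A match is a string of letters and not a measured binding site.

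Levels differed widely between subunits and little between libraries. The mean over the 3 libraries ran from 0.0569 FPKM for MED12L to 35.9 FPKM for MED10, with a median of 7.35 FPKM; 20 subunits lay between 5 and 20 FPKM, 2 above 20, 8 between 1 and 5, and 2 below 1. The median subunit stood at 6.86 FPKM in WT, 7.53 in L597R and 6.87 in P-Enter, and all 32 together took 0.145%, 0.148% and 0.140% of the counted reads in that order. MED10, a small conserved subunit of the middle, was at 35.1 FPKM in WT, 37.1 in L597R and 35.5 in P-Enter. MED29, a tail subunit related to the fly sex determination protein Intersex, was at 26.9, 24.6 and 26.2 FPKM, and the tail subunit MED24 at 18.7, 17.2 and 18.7 FPKM in the same order. These were the 3 subunits of highest mean level at the lengths behind the FPKM. At those lengths MED10 and MED29 lay apart from all the others, while MED24 and MED1, next in the order, differed by less than their spread over the libraries. The order between subunits depends on the choice of length. The principal transcript covers 95.3% of the annotated exon length for MED29 and 60.7% for MED10. For MED24 it covers 49.97% and for MED15 31.3%. Levels at the length of the principal transcripts were not computed, so the order there was not tested.

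**Figure D1:**
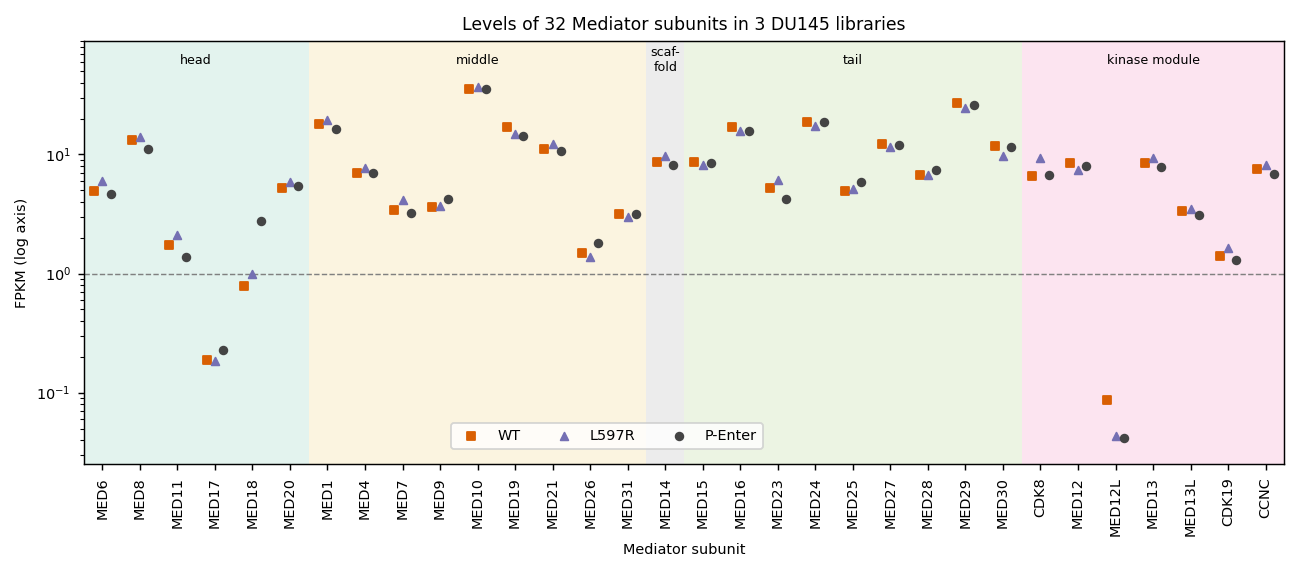
FPKM of the 32 subunits on a log axis, grouped by module; squares are WT, triangles L597R and circles P-Enter, 1 library each, and the dashed line marks 1 FPKM. Most subunits have 3 nearly coincident points, MED18 has P-Enter at 2.76 FPKM above both BRAF libraries, and MED17 and MED12L lie below 1 FPKM in every library.

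MED17 and MED12L were under the filter of a mean of 1 FPKM, leaving 30 subunits for the comparisons. MED17, the architectural subunit of the head, had 49 reads in WT and 51 in L597R, against 50 in P-Enter, or 0.188, 0.185 and 0.226 FPKM. No library stands out, and the read ratios were 0.832 (0.549 to 1.26) for WT and 0.817 (0.542 to 1.23) for L597R against P-Enter. Of the bases of its principal transcript, 43.6% lie under exons of other annotated genes, among them AP001273.2 on the same strand, a gene not analysed here. Its annotated exons add up to 16610 bases, of which that transcript covers 31.0%, and the FPKM is scaled to all of them. The setting for reads that fall on several genes is not given in the sources used here, and its part in the low MED17 value was not tested. Other subunits share bases too: 58.9% of the principal transcript of MED26, 74.2% of MED31 and 25.9% of MED11 lie under other genes, whereas for MED18 it is 0%. Across the 32 subunits, 11 share at least 5% of their exon bases with another gene (34.4%, against 29.7% of 14117 protein-coding genes in the tables).

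MED18 was the subunit that differed most from the control, and it was low in both BRAF libraries. It encodes a head subunit (chromosome 1, 28329002 to 28335967, plus strand, GRCh38) that pairs with MED20 in the movable jaw of the head. It had 25 reads in WT and 33 in L597R, against 74 in P-Enter. Per length that was 0.791 FPKM in WT and 0.985 FPKM in L597R, against 2.76 FPKM in P-Enter. P-Enter is thus the high library, and WT and L597R lie close to each other. The WT value chose this gene and is given as a description: the read ratio to P-Enter was 0.287 (0.175 to 0.457). For L597R, which shares that control, the ratio was 0.357 (0.229 to 0.545), and L597R against WT had a ratio of 1.25 (0.718 to 2.18), whose interval holds 1. On the log2(FPKM + 1) scale the differences were -1.07 for WT and -0.92 for L597R against P-Enter, on either side of the size rule (a difference of at least 1). That scale understates changes of low genes, and with a pseudocount of 0.1 FPKM the L597R difference was -1.40.

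No other head subunit had an interval below 1 against P-Enter. The jaw partner MED20 was at 5.20 FPKM in WT and 5.82 in L597R, against 5.46 in P-Enter, and both its intervals against the control hold 1 (0.952, 0.796 to 1.14, for WT; 1.07, 0.899 to 1.27, for L597R). MED8, a head subunit that anchors MED18 and MED20, was at 13.1 FPKM in WT and 14.1 in L597R, against 11.1 in P-Enter. Both BRAF libraries are above the control there, with ratios of 1.19 (1.04 to 1.35) and 1.27 (1.12 to 1.45). MED6, which bridges head and middle, was at 4.92 FPKM in WT and 5.94 in L597R, against 4.67 in P-Enter; L597R is the high library, at 1.27 (1.09 to 1.49) against P-Enter and 1.21 (1.04 to 1.40) against WT. MED11, a small head subunit, had 40 reads in WT and 52 in L597R, against 27 in P-Enter. Its ratio of 1.54 (0.951 to 2.55) for L597R against P-Enter was the highest of the tested subunits, yet the interval holds 1 at this depth. MED17, described above, lay below P-Enter in both, with intervals too wide to show whether it differed. After a regression of the log2 difference on GC content, expression and length over protein-coding genes, the L597R differences against P-Enter were 0.36 for MED8 (0.32 before it) and 0.11 for MED6 (0.29 before it). Over the 6 head subunits the summed reads gave ratios of 1.02 (0.940 to 1.11) for WT and 1.15 (1.06 to 1.24) for L597R against P-Enter.

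Genes beside MED18 on chromosome 1 were mixed. The nearest protein-coding gene on one side is SESN2, a stress-inducible sestrin whose start lies 69.5 kb upstream, at 1.38 FPKM in WT and 1.1 in L597R, against 1.5 in P-Enter. Its intervals against the control hold 1 (0.922, 0.656 to 1.30, for WT; 0.731, 0.511 to 1.04, for L597R). On the other side PHACTR4, an actin and phosphatase regulator 40.6 kb downstream, was at 10.8 FPKM in WT and 10.9 in L597R, against 10.5 in P-Enter. Those values lie within 1.25-fold of each other, with ratios of 1.03 (0.947 to 1.12) and 1.04 (0.959 to 1.13). Beyond SESN2, and named after its values were seen, ATP5IF1 encodes the inhibitor of the mitochondrial ATP synthase and starts 92.9 kb upstream. It had 10 reads in WT and 48 in L597R, against 76 in P-Enter, and was lower in both, with ratios of 0.112 (0.0515 to 0.217) and 0.506 (0.345 to 0.735). Unlike MED18, it also differed between the BRAF libraries, at 4.53 (2.26 to 10.04) for L597R against WT. DNAJC8, a J-domain protein that starts 96.0 kb upstream, had ratios of 0.923 (0.873 to 0.976) and 0.953 (0.902 to 1.01).

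**Figure D2:**
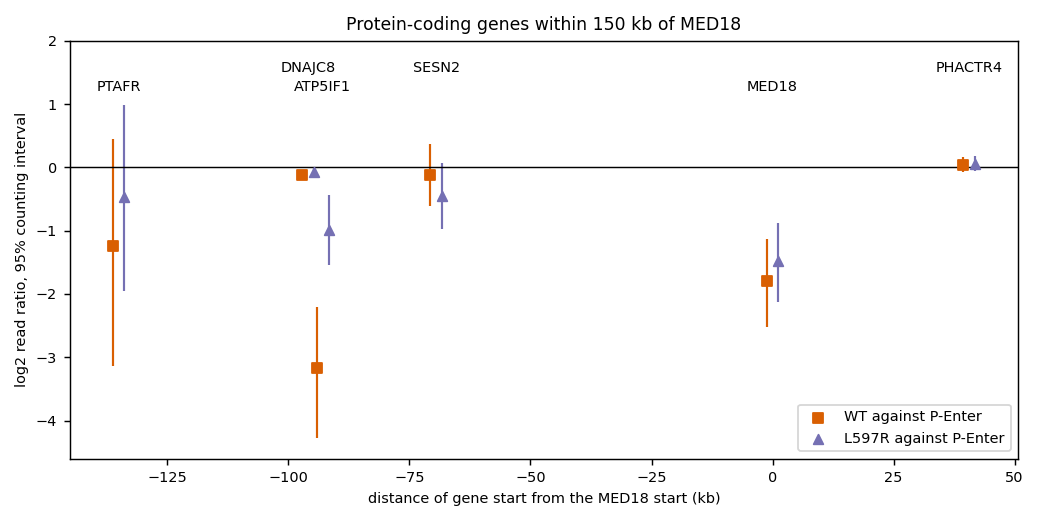
Log2 read ratio to P-Enter, with the exact 95% counting interval, for MED18 and the 5 other protein-coding genes that start within 150 kb of it, against distance in kb (negative is upstream); squares are WT and triangles L597R. MED18 and ATP5IF1 lie below 0 in both libraries, while SESN2 between them and PHACTR4 beyond have intervals that hold 0; PTAFR rests on 5, 9 and 10 reads (WT, L597R, P-Enter).

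In WT against P-Enter, the comparison for raised wild-type BRAF, the other subunits stayed close to the control. By the size rule (a log2(FPKM + 1) difference of at least 1) the 1 subunit called was MED18; the same rule called 0.978% of 10639 genes (0.376% as higher and 0.602% as lower) and, among protein-coding genes, 0.0962% as lower. Since the WT value chose MED18, nothing is read from that call. The interval lay above 1 for 5 of 30 subunits (16.7%, against 14% of all genes tested and 15.3% of protein-coding genes). Below 1 it lay for 2 (6.67%, against 12.1% and 12.6%). It lay wholly beyond 1.5-fold for MED18 alone, a rule that called 0.255% of genes as lower and 0.0662% as higher. The median log2 difference was 0.05, against -0.00069 over all genes tested, with 21 subunits above and 9 below P-Enter (22 and 8 after rescaling by the median ratio, which turned MED24). After the regression the median was 0.0068, with 16 above and 14 below. Read ratios were within 1.25-fold for 27 of the 30 (90%, against 88.3% of all genes and 92.7% of protein-coding genes). Those above 1 were MED1, MED8, MED13L, MED19 and MED23, and those below were MED18 and MED25.

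In L597R against P-Enter more subunits had intervals that left out 1, and so had all genes. No subunit passed the size rule, which called 0.808% of genes (0.301% as higher, 0.508% as lower, and 0.0962% of protein-coding genes as lower). The interval lay above 1 for 11 of 30 (36.7%, against 25.6% of all genes tested) and below 1 for 4 (13.3%, against 23.9%). For MED18 alone it lay wholly beyond 1.5-fold (by that rule 0.341% of genes were called as lower and 0.151% as higher). The median log2 difference was 0.07, against -0.01 over all genes, with 17 subunits above and 13 below (18 and 12 after rescaling, which turned MED16). Within 1.25-fold were 22 subunits (73.3%, against 74.7% of all genes and 77.7% of protein-coding genes). After the regression the median was 0.022, and 3 of the 11 subunits with an interval above 1 lay below 0 (MED21, MED13 and MED13L). In L597R against WT the size rule called 0 subunits and 0.724% of genes (0.348% as higher, 0.376% as lower). The 1.5-fold interval rule called 0 subunits, 0.17% of genes as higher and 0.189% as lower. The interval lay above 1 for 6 subunits (20%, against 22.1%) and below 1 for 5 (16.7%, against 16.3%), and the median difference was 0.08, against 0.01 over all genes, and 0.020 after the regression. The comparisons share libraries, so these counts are not independent of one another.

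**Figure D3:**
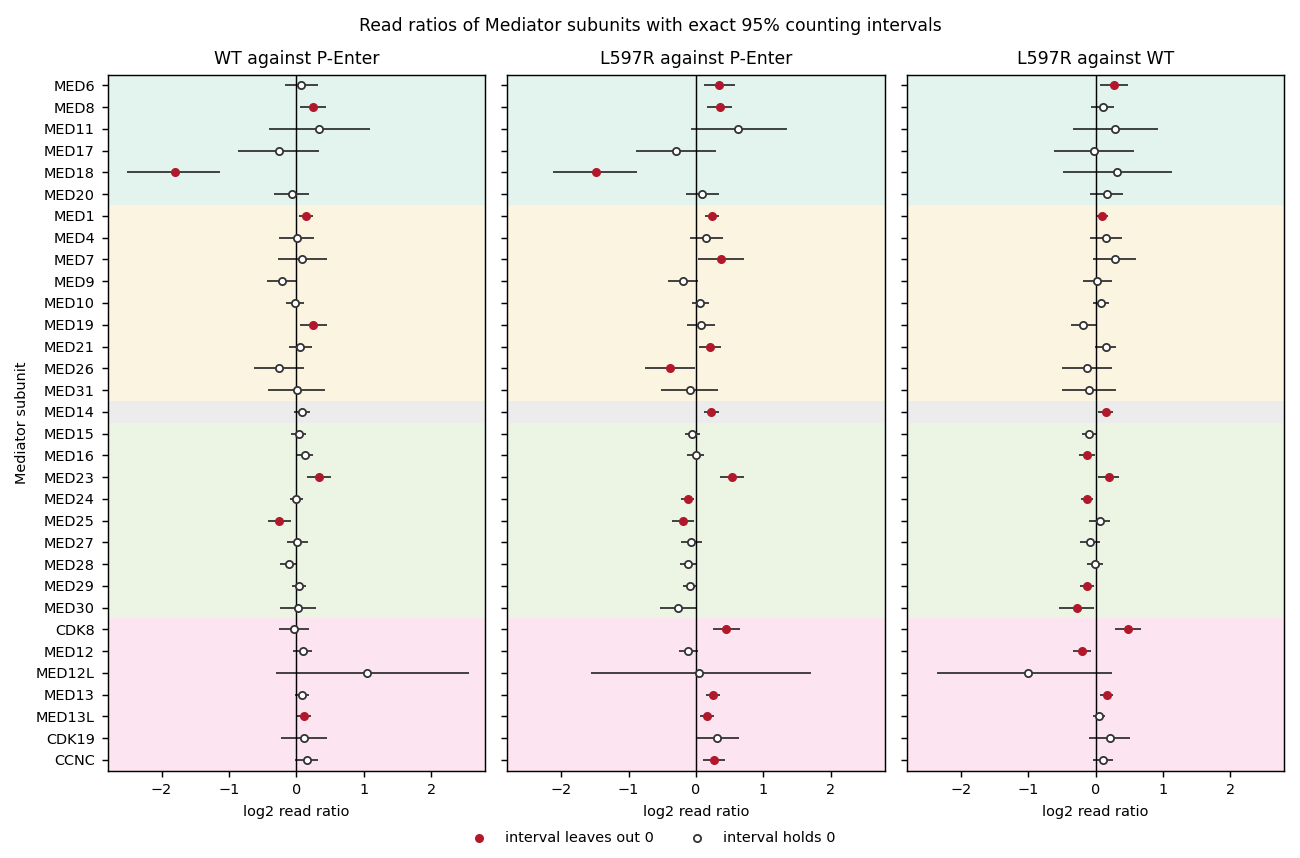
Log2 read ratio of each subunit with its exact 95% counting interval in the 3 comparisons, ordered by module (head at the top, kinase module at the bottom). Red points have intervals that leave out 0; in the panel of L597R against P-Enter these include MED23 and CDK8 above 0 and MED18 below, and no point of L597R against WT lies beyond 1.5-fold with its whole interval.

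In the middle module the interval against P-Enter lay above 1 for 2 of 9 subunits in WT and for 3 in L597R, and below 1 for 0 and for 1. The summed reads of the module gave ratios of 1.04 (0.999 to 1.09) for WT and 1.09 (1.05 to 1.14) for L597R. MED1, its largest subunit and the docking site of nuclear receptors, was at 18.1 FPKM in WT and 19.3 in L597R, against 16.4 in P-Enter. Both BRAF libraries are above the control, at 1.11 (1.03 to 1.19) and 1.18 (1.1 to 1.26). MED19 was at 16.9 FPKM in WT and 14.9 in L597R, against 14.2 in P-Enter. There WT is the high library, at 1.19 (1.04 to 1.37), and the interval of L597R holds 1 (1.05, 0.914 to 1.21). MED7, which forms the hinge of the module with MED21, had 149 reads in WT and 192 in L597R, against 119 in P-Enter; the ratio of L597R to P-Enter was 1.29 (1.02 to 1.64). MED21 itself was at 11.1 FPKM in WT and 12.3 in L597R, against 10.6 in P-Enter, with a ratio of 1.15 (1.03 to 1.29) for L597R. After the regression the L597R difference of MED7 was 0.10 (0.29 before it) and that of MED21 turned to -0.11 (0.19 before it), while that of MED1 was 0.19 (0.23 before it). MED26, the subunit that recruits elongation factors to the complex, had 125 reads in WT and 121 in L597R, against 127 in P-Enter, the library with the fewest counted reads. Its ratio was 0.835 (0.647 to 1.08) for WT and 0.763 (0.590 to 0.986) for L597R, whose log2 difference was -0.06 after the regression (-0.24 before it). MED9 was at 3.61 FPKM in WT and 3.67 in L597R, against 4.2 in P-Enter, and both intervals reach just past 1. MED4 was at 6.95 FPKM in WT and 7.72 in L597R, against 6.94 in P-Enter, and MED31, a small subunit beside MED7, at 3.18 and 2.97, against 3.18 FPKM. For these 2 and MED10 the intervals of all 3 comparisons hold 1.

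The scaffold MED14 was at 8.68 FPKM in WT and 9.62 in L597R, against 8.22 in P-Enter. L597R is the high library, at 1.17 (1.08 to 1.27) against P-Enter and 1.11 (1.03 to 1.19) against WT, while the interval of WT against P-Enter holds 1 (1.05, 0.972 to 1.15). After the regression the L597R difference against P-Enter was 0.04 (0.20 before it).

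In the tail, MED23 was the 1 subunit above P-Enter in L597R. It is the docking subunit of phosphorylated ELK1 (chromosome 6, 131573966 to 131628229, minus strand). MED23 had 613 reads in WT and 745 in L597R, against 413 in P-Enter, or 5.27 and 6.04 FPKM, against 4.18 FPKM. L597R is the highest library and P-Enter the lowest. Set against P-Enter, WT had a ratio of 1.26 (1.11 to 1.43) and L597R one of 1.44 (1.28 to 1.63), and the ratio of L597R to WT was 1.15 (1.03 to 1.28). The other 8 tail subunits lay below P-Enter in L597R, with the interval below 1 for MED24 (0.917, 0.859 to 0.979) and MED25 (0.874, 0.781 to 0.977). MED16 turned above P-Enter with rescaling, and after the regression 6 of the 9 tail subunits lay above 0, with MED24 at 0.02 (-0.12 before it). The 3 below 0 were MED25 at -0.02 (-0.17 before it), MED28 at -0.20 (-0.10) and MED30 at -0.32 (-0.24). MED28 and MED30 thus lay further below P-Enter after the regression, and MED30 was at -0.33 against WT (-0.26 before it). MED25, a target of the viral activator VP16, was at 4.96 FPKM in WT and 5.17 in L597R, against 5.91 in P-Enter. It is the 1 tail subunit whose interval lay below 1 in WT as well (0.839, 0.748 to 0.941). MED30 was at 11.7 FPKM in WT and 9.62 in L597R, against 11.5 in P-Enter, so that L597R is the low library; its interval left out 1 against WT (0.822, 0.686 to 0.985) and held 1 against P-Enter (0.833, 0.690 to 1.01). MED15, which binds sterol-responsive activators, was at 8.68 FPKM in WT and 8.16 in L597R, against 8.48 in P-Enter, and MED16 at 17.1 and 15.7, against 15.7 FPKM. MED27 was at 12.2 FPKM in WT and 11.5 in L597R, against 12.1 in P-Enter, and MED28 at 6.78 and 6.76, against 7.34 FPKM. For these 4 and MED29 both intervals against P-Enter hold 1. Summed over the 9 tail subunits, the read ratio to P-Enter was 1.01 (0.980 to 1.04) for WT and 0.961 (0.933 to 0.990) for L597R.

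In the kinase module the catalytic subunit CDK8 was higher in L597R than in either of the other libraries. CDK8 (chromosome 13, 26254104 to 26405238, plus strand) phosphorylates transcription factors and the polymerase. It had 366 reads in WT and 543 in L597R, against 318 in P-Enter, or 6.6 and 9.24 FPKM, against 6.76 FPKM. WT and P-Enter do not differ beyond counting error (0.977, 0.838 to 1.14), whereas the ratio of L597R was 1.37 (1.19 to 1.58) against P-Enter and 1.4 (1.22 to 1.6) against WT. After the regression CDK8 in L597R stood at 0.35 against P-Enter and 0.39 against WT (0.40 and 0.43 before it). The tail subunit MED23 in L597R was at 0.29 against P-Enter and 0.07 against WT after the same regression (0.44 and 0.17 before it). The other subunits of the module with intervals above 1 in L597R were lower after it: CCNC at 0.0041 (0.23 before it), MED13 at -0.03 (0.23) and MED13L at -0.03 (0.12). The regression removes any difference that follows GC content, expression level or length. With 1 library per group, library effects and expression changes of that kind cannot be told apart. The cyclin of CDK8, CCNC, was at 7.56 FPKM in WT and 8.15 in L597R, against 6.80 in P-Enter, with ratios of 1.11 (0.989 to 1.25) and 1.2 (1.07 to 1.34). MED12, which activates the kinase through cyclin C, was at 8.44 FPKM in WT and 7.33 in L597R, against 7.92 in P-Enter. It was the 1 tested subunit of the module below P-Enter in L597R (0.926, 0.840 to 1.02), and its interval left out 1 against WT (0.869, 0.793 to 0.952). MED13, which ties the module to the core, was at 8.39 FPKM in WT and 9.41 in L597R, against 7.91 in P-Enter, with a ratio of 1.19 (1.11 to 1.28) for L597R. Over the 7 subunits the summed reads gave ratios of 1.07 (1.03 to 1.11) for WT and 1.14 (1.09 to 1.18) for L597R against P-Enter.

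Within each pair of paralogs that take the same place in the module, the proportions per length did not differ between libraries beyond counting error. CDK19, the paralog of CDK8, had 169 reads in WT and 207 in L597R, against 133 in P-Enter (1.41 and 1.63 FPKM, against 1.31 FPKM). It made up 17.6% (15.0 to 20.5) of the pair's reads per length in WT and 15.0% (13.0 to 17.2) in L597R, against 16.2% (13.6 to 19.2) in P-Enter; the exact binomial intervals overlap. MED13L was at 3.34 FPKM in WT and 3.46 in L597R, against 3.1 in P-Enter. It made up 28.5% (27.1 to 29.9) of its pair with MED13 in WT and 26.9% (25.7 to 28.2) in L597R, against 28.2% (26.6 to 29.7) in P-Enter. MED12L had 17 reads in WT and 9 in L597R, against 7 in P-Enter, which was 1.01% (0.587 to 1.61), 0.582% (0.266 to 1.1) and 0.524% (0.211 to 1.08) of its pair with MED12. At the lengths behind the FPKM, MED12, MED13 and CDK8 were the more abundant member of each pair in all 3 libraries. For MED13L the choice of length matters. Its principal transcript covers 39.1% of its annotated exon length, against 82.6% for MED13. MED13L had 1721 reads in WT and 1889 in L597R, against 1354 in P-Enter, beside 1666, 1981 and 1332 for MED13. Shares at the length of the principal transcripts were not computed.

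Read ratios were set beside the GC content of the transcripts, module by module. Against P-Enter in L597R, the median log2 difference was 0.29 for the head, 0.07 for the middle, -0.09 for the tail and 0.21 for the kinase module, over 5, 9, 9 and 6 tested subunits. The median GC content of the longest transcript was 49.2% in the head, 46.1% in the middle, 53.8% in the tail and 43.2% in the kinase module. After the regression the medians were 0.11, -0.06, 0.02 and 0.01 in the order head, middle, tail and kinase module, so the sign turned for the middle and the tail. Before the regression the kinase module, the middle and the tail fell in the order of their GC content. The head had the highest median and the second highest GC content. What GC content contributes to these medians was not tested. Over the 30 subunits the rank correlation of read ratio with GC content was -0.52 for L597R against P-Enter and -0.21 for WT against P-Enter, beside -0.68 and -0.45 over 9329 protein-coding genes. These points share libraries and are given as a description. The 15 subunits of lower GC content had a median log2 read ratio of 0.24 in L597R against P-Enter and the 15 of higher GC content one of -0.07, beside 0.22 and -0.12 for protein-coding genes divided at the same 46.2%. MED18, at 49.5% GC, had log2 differences of -1.01 for WT and -0.85 for L597R after the regression.

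**Figure D4:**
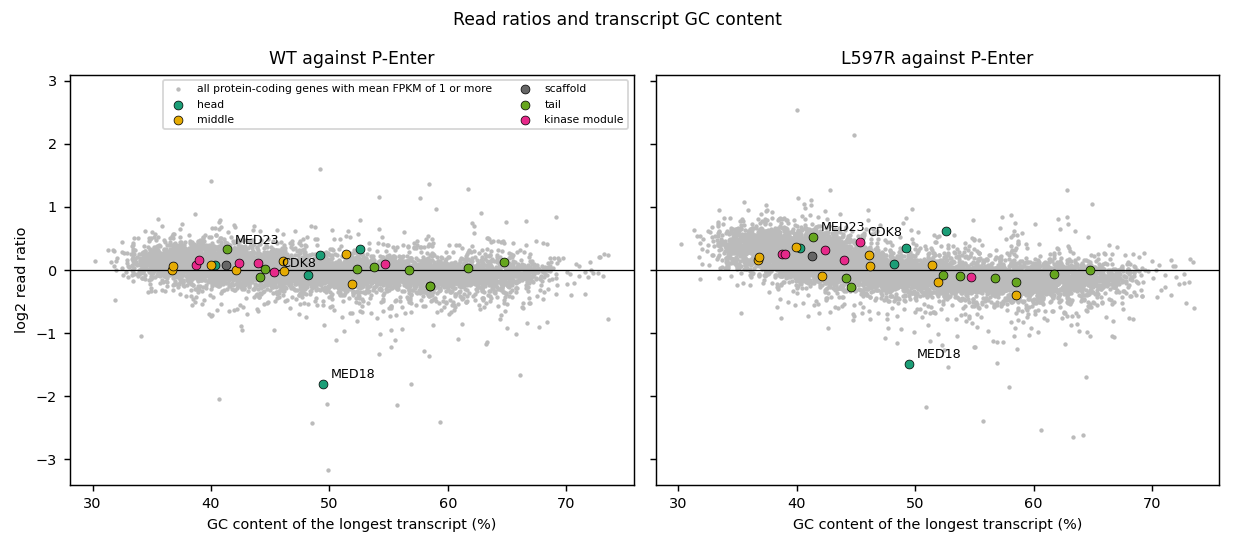
Log2 read ratio to P-Enter against the GC content of the longest transcript (percent) for the 30 tested subunits, coloured by module, over all tested protein-coding genes in grey. The subunits other than MED18 lie within the grey band, which goes down with GC content (rank correlation -0.68 in L597R and -0.45 in WT). MED18 lies far below the other subunits in both panels.

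Lists of the wider RNA polymerase II machinery, written with earlier results of these data known, held 1 gene beyond 1.5-fold by its whole interval, and that gene was POLR2A. Of 11 tested RNA polymerase II subunits none passed the size rule, and the median log2 difference was -0.02 for WT and -0.08 for L597R against P-Enter. Their median GC content was 55.9%, and after the regression the medians were 0.0011 for WT and -0.08 for L597R. POLR2A, the largest subunit and catalytic centre of the polymerase, had 246 reads in WT and 256 in L597R, against 400 in P-Enter, or 1.88 and 1.85 FPKM, against 3.60 FPKM. The ratios were 0.522 (0.443 to 0.613) and 0.512 (0.436 to 0.601), wholly beyond 1.5-fold, and as for MED18 the interval of L597R against WT holds 1 (0.982, 0.821 to 1.17). The interval against P-Enter lay below 1 for 5 of the 11 in WT and for 5 in L597R (beside 12.1% and 23.9% of all genes), with both comparisons resting on the same control library; these were POLR2A, POLR2C, POLR2E, POLR2G and POLR2H. It lay above 1 for 1 in each, POLR2F in WT and POLR2B in L597R. POLR2B, the second largest subunit, was at 30.1 FPKM in WT and 34.3 in L597R, against 28.5 in P-Enter. POLR2A thus stood far below POLR2B in every library. Exon bases that POLR2A shares with other genes are not given here, and their part in its low level was not tested. The general initiation factors other than TFIIH (18 tested) had medians of 0.01 for WT and 0.05 for L597R, and the pause release and elongation factors (18 tested) 0.01 and 0.01, with no gene past the size rule or the 1.5-fold interval in either list. Among proteins that bind Mediator or turn it over, such as FBXW7, which degrades MED13, and the coactivators EP300 and CREBBP, the medians of 6 tested genes were -0.03 and -0.05.

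Cohesin and its loader, which meet Mediator at enhancers and promoters, lay above P-Enter for all 7 genes in both BRAF libraries. The median log2 difference was 0.15 for WT and 0.40 for L597R, and the interval lay above 1 for 5 and for 6 of the 7, beside 14% and 25.6% of all genes tested. STAG2, a core subunit, was at 13.1 FPKM in WT and 15.7 in L597R, against 11 in P-Enter, with ratios of 1.19 (1.1 to 1.28) and 1.42 (1.32 to 1.53). NIPBL, the loader, was at 7.37 FPKM in WT and 8.13 in L597R, against 6.56 in P-Enter. None of the 7 passed the size rule or the 1.5-fold interval. Their median GC content was 40.2%, and after the regression the medians were 0.07 and 0.16.

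**Figure D5:**
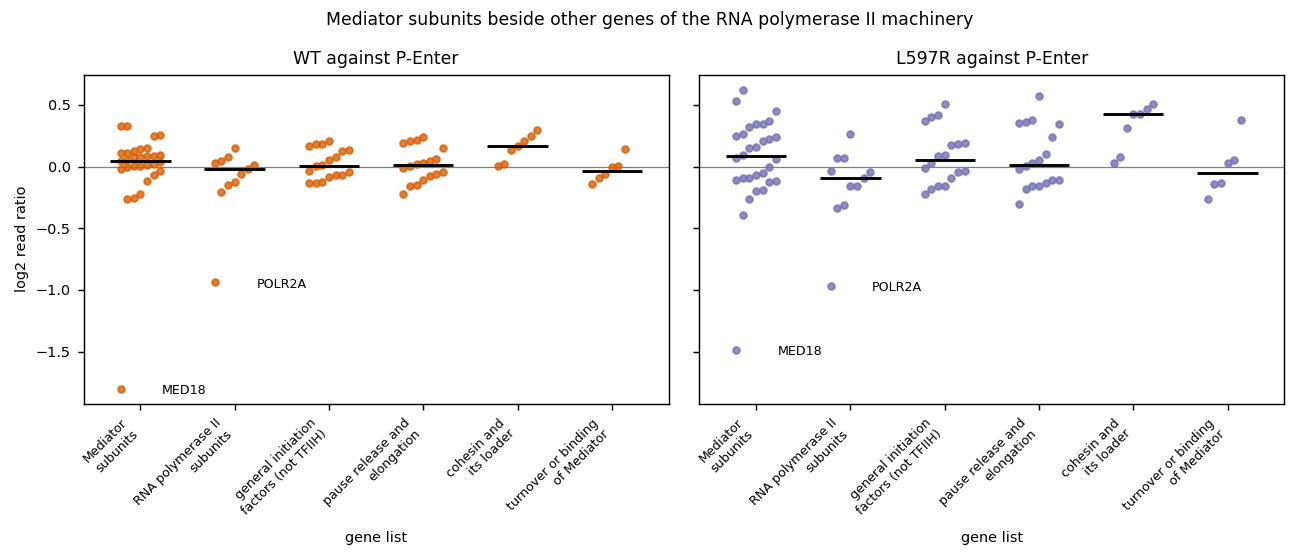
Log2 read ratio to P-Enter of each tested gene in 6 lists (points, spread sideways for legibility) with the list median (black bar), for WT and L597R. MED18 and POLR2A lie below all other points of their lists in both panels, and the cohesin list has its whole set above 0.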

How the data were processed

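Libraries were made with a stranded mRNA kit from Trizol-extracted RNA, per the labels' protocols. The submitters' processing notes name Trimmomatic, HISAT2, Cufflinks and HTSeq on GRCh38; versions, strand setting and annotation release were in none of the sources used here. Lacking the strand setting, reads of overlapping, antisense or near-identical genes cannot be assigned with certainty. Values were deposited by the authors as FPKM for each Ensembl ID, per the file headers; the fallback written for FPKM was used. No count model was fitted.

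Symbols came from a gene name table (23330 of 23379 IDs matched) and positions, exon lengths, overlaps and GC content from GENCODE 29 (22807 IDs matched). Whole reads were recovered by searching library totals and whole-number lengths that gave whole reads in all 3 libraries (tolerance 1e-05, at most 4-fold from the annotated length): 22595 genes (96.6%), among them all 32 subunits, 12 at exactly the annotated length and 28 within 10% of it (MED27 at 1.83 times). They sum to 100.4% of each total, for a reason not tested. The reads and lengths of MED1 (factor 3) and MED21 (factor 2) share a common factor, so fewer reads at a shorter length would give the same FPKM and wider intervals. Read ratios carry exact Clopper-Pearson 95% intervals conditional on the summed reads; amplified copies of 1 molecule count separately, which these intervals leave out. The regression took log mean FPKM, GC content and log length, each as a cubic, over 9358 protein-coding genes.

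Past the size rule are genes with a mean of 1 FPKM or more and a log2(FPKM + 1) difference of 1 or more; that scale understates changes of low genes. Members and gene lists were chosen with earlier results of these data known. Named were subunits past the size rule or with an interval wholly beyond 1.5-fold, the 3 of highest and 3 of lowest mean, the paralog pairs and the extremes of each module; full values of the other subunits were added after they were seen, as were ATP5IF1, DNAJC8, PTAFR, the other POLR2 genes named beside POLR2A, STAG2, NIPBL and the motifs. Of the wider lists, 3 genes were not analysed here. Scripts were tested on simulated data. Python 3.11.15, numpy 2.4.6, pandas 2.3.3, scipy 1.17.1, matplotlib 3.10.9 and bedtools 2.31.1 were used.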

Additional observations from a re-analysis of the deposited data

How the results depend on the processing

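With 1 library per group no replicate could be left out. No paired analysis was possible because each group has 1 library and no result comes from a test. The number of subunits past the size rule for WT against P-Enter was 1 under the remaining settings and 0 with a pseudocount of 5 FPKM or a mean of at least 5 FPKM, a filter that leaves out MED18. For L597R against P-Enter it was 0, and 1 (MED18) with a pseudocount of 0.1 FPKM, with a 1.5-fold threshold and with the 1.5-fold interval of recovered reads. For L597R against WT it was 0 in all settings run. The median log2 difference of the subunits was positive in all settings run. After the regression it was 0.0068 (WT over P-Enter), 0.022 (L597R over P-Enter) and 0.020 (L597R over WT), and the last was 0.048 with a pseudocount of 5 FPKM. Rescaling by the median ratio (factors 0.998 for WT and 1.005 for P-Enter) and leaving out subunits that share at least 5% of exon bases with other genes, an alternative chosen after seeing the data, left the size-rule counts as they were. Of 288 settings of single subunits, MED17 and MED12L included, 286 kept their side of the size rule and the others were MED18. The largest reported difference of any other subunit was 0.44 (MED23, L597R against P-Enter). That is far from the rule, so the count says little about robustness. Near 0, 2 uncalled differences changed sign, both with rescaling (MED24 for WT, MED16 for L597R, against P-Enter). At annotated lengths, also chosen afterwards, MED13L made up 26.0% of its pair in WT and 24.4% in L597R, against 25.6% in P-Enter. Depth limits MED11, MED12L, MED17 and MED18, with 7 to 74 reads per library.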
